A study of Mus musculus with 2 samples.

Results

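A set of 10 genes was followed whose products carry or restrain the signal of the costimulatory receptor OX40 and its relatives inside the T cell. They are the adaptor genes Traf1, Traf2, Traf3, Traf5 and Traf6, the cIAP ubiquitin ligase genes Birc2 and Birc3, the kinase gene Map3k14, and the feedback genes Tnfaip3 and Tnip3. They were picked by name as adaptors and feedback regulators downstream of OX40, and all 10 were found by Entrez identifier among the 13056 annotated genes of the deposited table. The CD4+ T cells came from C57BL/6 mice of wild-type genotype, aged 6 to 8 weeks, and spent 48 h in a culture that steers them towards the T helper 17 (Th17) fate. The antigen presenting cells (APCs) of the culture were wild type in one library (WT-APC) and transgenic for OX40L, the ligand of OX40, in the other (OX40L-TG-APC). The promoter of the transgene and the kind of APC are not given in the sources used here. With 1 library per condition there were no replicates and no test between conditions was possible, and each statement compares these 2 libraries.

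When a receptor of this family is engaged, its tail gathers TRAF proteins, and these bring the cIAP ligases to the membrane. In a resting cell TRAF3, TRAF2 and the cIAPs hold down the kinase NIK, the product of Map3k14, by marking it for destruction. Receptor engagement breaks that complex, NIK accumulates and the non-canonical NF-kB arm is switched on, while ubiquitin chains made by TRAFs and cIAPs feed the canonical arm. A20, the product of Tnfaip3, edits such chains and closes the signal, with the help of A20-binding (ABIN) proteins. Tnip3 encodes a protein of the ABIN family, whose action on NF-kB was described in human cells. Its role in these mouse cells was not tested.

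Tnip3 had the largest difference among the members, at 19.2 FPKM with OX40L-TG APCs against 2.25 FPKM with WT APCs. FPKM is the number of fragments per kilobase of transcript, scaled to library size. Traf1, Traf6 and Tnfaip3 were each higher by a ratio between 1.42 and 1.54. The genes of the NIK-restraining complex and of NIK itself (Traf2, Traf3, Birc2, Birc3, Map3k14) lay between 0.878 and 1.27 times their WT-APC level, and Traf5 was the lowest by ratio, at 0.716. Differences were counted from 2-fold upward on the log2(FPKM + 1) scale. That was reached by 1 of the 10 members in the direction of a higher level (Tnip3) and by 0 in the other. For comparison, 10645 annotated genes reached 1 FPKM in one or both libraries, all 10 members among them, and of these 2.26% were higher and 1.32% lower by the same rule. Among the genes with a mean level in the range of the members (4.83 to 50.2 FPKM), the shares were 1.6% and 1.03%. The count thus rests on 1 gene and says nothing of the group. At 1.5-fold, with the values as deposited, 2 members were higher (Tnip3 and Traf1) and 0 lower, against 7.21% and 3.38% of all genes. A change above 0 of any size was seen for 6 of the 10 members and for 68.3% of all genes. The median log2 change was 0.23 over the 10 members, 0.13 over the 9 without Tnip3, and 0.11 over all genes.

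Depth, estimated from the deposited values, came to roughly 24200000 fragments with WT APCs against 27800000 fragments with OX40L-TG APCs, and the intervals below are 95% exact intervals for counting error that follow from these sizes. They do not cover the variation between cultures or animals. All 10 T cell markers examined were high, between 98.0 and 322 FPKM with WT APCs and between 86.5 and 407 FPKM with OX40L-TG APCs. B cell markers were low and all 10 were lower with OX40L-TG APCs, with a summed level of 22.8 against 51.8 FPKM (ratio 0.441) and none at 0. The 8 monocyte and macrophage markers summed to 3.91 against 10.75 FPKM, each of them lower, and none at 0. The 8 dendritic cell markers summed to 5.66 against 8.40 FPKM, with Cd209a at 0 with WT APCs and Clec9a and Siglech at 0 with OX40L-TG APCs. CD8 T cell markers (2 genes) summed to 6.33 against 7.02 FPKM and natural killer cell markers (4 genes) to 0.187 against 0.307 FPKM, where Klra4 was at 0 in both. B cells and myeloid cells also express TRAF, cIAP and A20 genes, and the part of such cells in the results below was not tested. In bulk RNA, fewer cells of a type and less RNA per cell cannot be told apart.

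**Figure D1:**
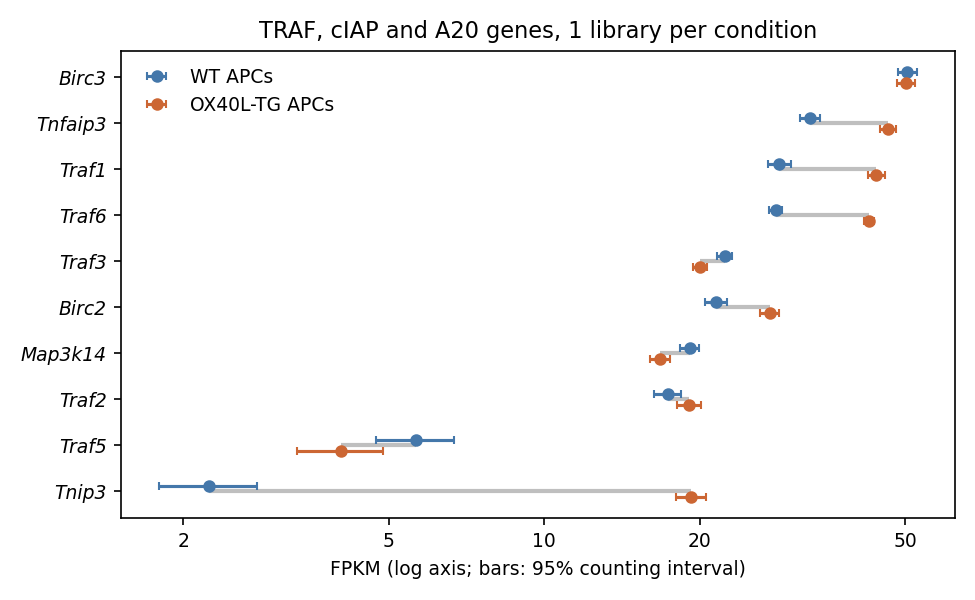
Level of each of the 10 genes in FPKM (log axis) with WT APCs (blue) and OX40L-TG APCs (orange), with 95% counting intervals and a grey line between the libraries. Tnip3 runs from 2.25 to 19.2 FPKM, while Birc3 stays at about 50 FPKM in both.

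Among the TRAF adaptors, Traf1 encodes a member without the RING domain that the other TRAFs studied here carry, pairs with TRAF2 and is itself a known NF-kB target. Traf1 (Entrez 22029, printed locus chr2:34943257-34961772 in coordinates that match GRCm38) stood at 28.5 FPKM with WT APCs and 43.9 FPKM with OX40L-TG APCs. That is a ratio of 1.54 (1.45 to 1.64), and its log2 change of 0.61 lay at percentile 93.3 of all genes. Traf6, whose product also serves the IL-1, IL-17 and Toll-like receptors, was measured at 28.0 FPKM with WT APCs and 42.5 FPKM with OX40L-TG APCs. Its ratio was 1.52 (1.46 to 1.58), at percentile 92.8. Traf1 and Traf6 thus started and ended at close levels, and their counting intervals overlapped in both libraries.

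Traf2 encodes the adaptor that bridges the receptor tail to the cIAPs. It stood at 17.3 FPKM with WT APCs and 19.1 FPKM with OX40L-TG APCs, a ratio of 1.10 (1.01 to 1.19). Its log2 change of 0.13 was at the median of all genes (percentile 52.5), and it turned to -0.04 when the summed FPKM of the libraries was set equal. Traf3, which encodes the adaptor that holds NIK, was at 22.3 FPKM with WT APCs and 20.04 FPKM with OX40L-TG APCs, a ratio of 0.897 (0.857 to 0.938).

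Traf5 encodes an adaptor of OX40 and CD27 that, in mouse CD4+ T cells, is also known to restrain IL-6 receptor signalling. It was the least abundant TRAF gene, at 5.63 FPKM with WT APCs and 4.04 FPKM with OX40L-TG APCs. The ratio of 0.716 had a wide interval (0.551 to 0.929), from about 133 and 109 fragments estimated with a transcript length of 976 bases. A longer length would give more fragments and a narrower interval. The log2 change of -0.40 lay at percentile 5.56. The printed locus of Traf5 is shared with a further feature of the table (Entrez 14869, 50.2 and 57.8 FPKM), which is Gstp2 by its identifier. A glutathione transferase pseudogene is annotated inside the locus in RefSeq, while Gstp2 itself is not. With Gstp2 added the locus summed to 55.8 FPKM with WT APCs and 61.8 FPKM with OX40L-TG APCs, a ratio of 1.11. Most of that sum is Gstp2, whose own ratio was 1.15, so the sum does not bear on the direction of Traf5. How the authors' counting divided reads between these features is not given in the sources used here.

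Taking Traf4 and Traf7 along, the TRAF family summed to 184 FPKM with WT APCs and 225 FPKM with OX40L-TG APCs, a ratio of 1.22. Within that sum the share of Traf1 went from 15.5% to 19.5% and Traf6 from 15.2% to 18.9%. The share of Traf3 went from 12.1% to 8.89%, that of Traf2 from 9.41% to 8.46% and that of Traf5 from 3.06% to 1.79%. Traf7, which encodes the most divergent family member, had the largest share of the 7 in both libraries, 30.3% and 27.6%. Traf4 kept close to its share, at 14.4% and 14.9%. The level of Traf1 was 1.64 times that of Traf2 with WT APCs and 2.31 times with OX40L-TG APCs. These shares and level ratios compare genes within a library, so they do not depend on how the libraries are scaled.

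**Figure D2:**
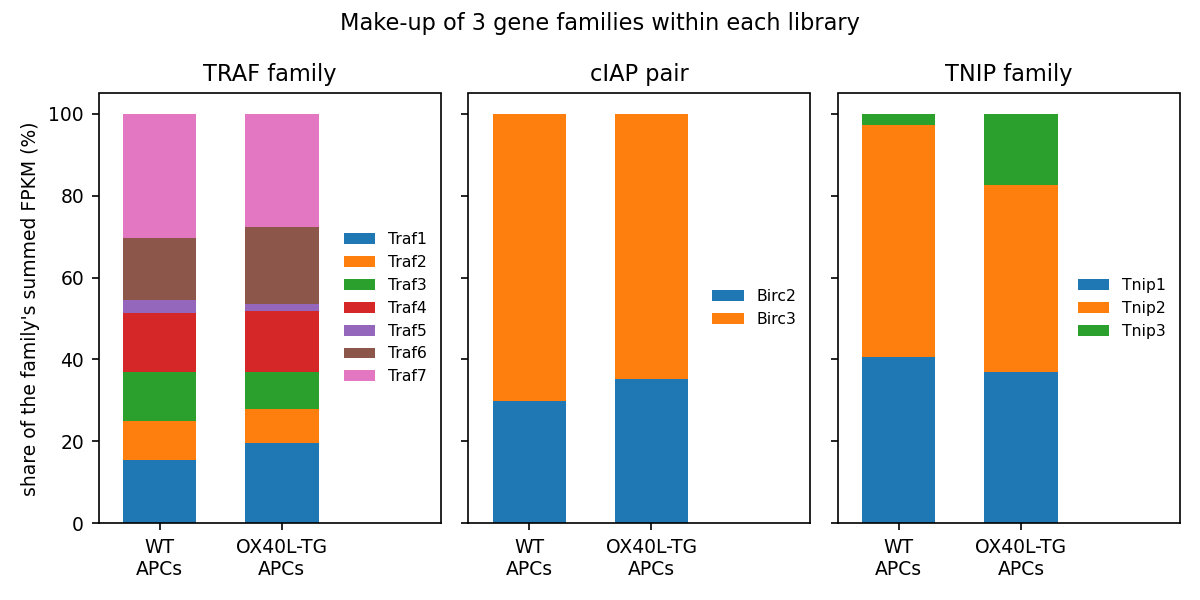
Share of the summed FPKM (in percent) that each gene took within the TRAF family, the cIAP pair and the TNIP family, for WT APCs (left bar) and OX40L-TG APCs (right bar). Tnip3 takes 2.78% and 17.3% of the TNIP sum, and Birc3 70.1% and 64.7% of the cIAP sum.

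The cIAP genes lie side by side on chromosome 9, with 13443 bases between their printed loci. Birc3, which encodes cIAP2 and is a known NF-kB target, was the most abundant of the 10 members in both libraries, at 50.4 FPKM with WT APCs and 50.1 FPKM with OX40L-TG APCs. The interval of its ratio (0.936 to 1.053) included 1 with the values as deposited. Its log2 change of -0.01 became -0.19 when the summed FPKM of the libraries was set equal. Birc2, which encodes cIAP1, was measured at 21.5 FPKM with WT APCs and 27.3 FPKM with OX40L-TG APCs, and its ratio was 1.27 (1.19 to 1.35). The level of Birc3 was therefore 2.34 times that of Birc2 with WT APCs and 1.83 times with OX40L-TG APCs. Of the 50-base stretches in the annotated Birc3 transcripts, 1.28% also occur in Birc2 transcripts, and the read length is not given in the sources used here. At the printed locus of Birc3 the table lists 2 further features without a gene name, at 23.4 and 23.6 FPKM and at 8.97 and 7.12 FPKM, WT-APC first. With these added the locus summed to 82.7 and 80.8 FPKM, a ratio of 0.976.

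Map3k14 encodes NIK, the kinase of the non-canonical arm, whose amount is set mainly by protein breakdown. It stood at 19.1 FPKM with WT APCs and 16.8 FPKM with OX40L-TG APCs. That is a ratio of 0.878 (0.824 to 0.935), and the log2 change of -0.18 lay at percentile 13.3. Measured against the gene of its binding partner, the level of Map3k14 was 0.855 times that of Traf3 with WT APCs and 0.837 times with OX40L-TG APCs. The printed locus of Map3k14 also covers the protein-coding genes Efcab15 and Spata32 and holds 1 further unnamed feature at 1.76 and 1.22 FPKM. With that feature added the sum was 20.9 and 17.99 FPKM, a ratio of 0.862.

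Tnfaip3 (Entrez 21929, printed locus chr10:19000909-19045623) encodes A20, the ubiquitin-editing enzyme that closes NF-kB signals and is a known target of NF-kB. It stood at 32.6 FPKM with WT APCs and 46.4 FPKM with OX40L-TG APCs, a ratio of 1.42 (1.34 to 1.504) at percentile 89.6. An assembled feature printed at the same locus was at 17.4 and 15.9 FPKM. With it added the locus summed to 50.1 and 62.3 FPKM, a ratio of 1.24.

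Tnip3 (Entrez 414084, printed locus chr6:65590397-65634040) encodes ABIN-3, described in human cells as an A20-binding inhibitor of NF-kB. It was the lowest of the members with WT APCs, at 2.25 FPKM, and stood at 19.2 FPKM with OX40L-TG APCs, level with Traf2 and Traf3. Its level was thus 8.57 times as high (6.86 to 10.8), from about 86 and 843 fragments. Its log2 change of 2.64 was the 16th highest of the 10645 genes, and its level moved from percentile 11.9 to percentile 59.6 of all genes. In the authors' deposited table Tnip3 had a log2 ratio of 3.13 with a p-value of 5e-05, which compares the libraries. It was the only one of the 10 members among the 398 genes of that table, in which the smallest absolute log2 ratio is 1.0004 and the largest p-value 0.0498. The printed locus of Tnip3 holds no other feature of the table and no other gene of the RefSeq annotation.

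The relatives of Tnip3 had smaller ratios. Tnip1, which encodes the widely expressed ABIN-1, had levels of 32.8 and 41.2 FPKM, WT-APC first, and a ratio of 1.26 (1.19 to 1.327). Tnip2, which encodes ABIN-2, had levels of 45.6 and 51.0 FPKM and a ratio of 1.12 (1.06 to 1.18). Tnip3 made up 2.78% of the summed TNIP level with WT APCs and 17.3% of it with OX40L-TG APCs. Its level was 0.0688 times that of Tnfaip3 with WT APCs and 0.415 times with OX40L-TG APCs.

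**Figure D3:**
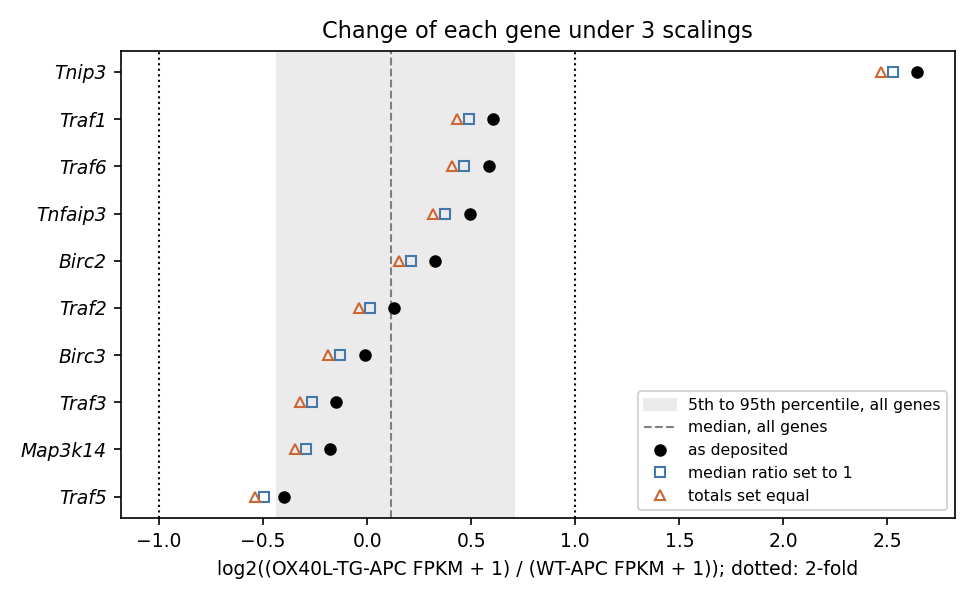
Change of each gene on the log2(FPKM + 1) scale as deposited (black), with the median ratio of well-expressed genes set to 1 (blue) and with totals set equal (orange); grey marks the 5th to 95th percentile of all genes, the dashed line their median and the dotted lines 2-fold. Tnip3 is beyond 2-fold under each scaling, and Traf2 crosses 0 with equal totals.

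The scaling of the libraries bears on the small changes. The median ratio of genes with at least 5 FPKM in both libraries was set to 1. This moved the median of all genes by -0.11 on the log2 scale, to 0.0045. Setting totals equal moved it by -0.16, to -0.048. Relative to the median of all genes, Tnip3, Traf1, Traf6, Tnfaip3, Birc2 and Traf2 lay above and Birc3, Traf3, Map3k14 and Traf5 below. Traf2 was above by a small margin, at 0.13 against 0.11. Only Tnip3 lay outside the range from the 5th to the 95th percentile of all genes (-0.43 to 0.71), while 2 members, Traf2 and Birc3, lay between the 25th and 75th percentiles (-0.05 to 0.29). The order of levels with WT APCs ran from Birc3 through Tnfaip3, Traf1, Traf6, Traf3, Birc2, Map3k14, Traf2 and Traf5 to Tnip3. In that order the counting intervals of Traf1 and Traf6, of Traf3 and Birc2, and of Map3k14 and Traf2 overlapped. With OX40L-TG APCs, Birc3, Tnfaip3, Traf1 and Traf6 led in the same order. There the intervals overlapped for Tnfaip3 and Traf1, for Traf1 and Traf6, for Traf3 and Tnip3, and for Tnip3 and Traf2. Traf5 was the lowest.

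The promoters of Tnip3, Tnfaip3 and Traf3 are shown because they hold a match to the kappaB consensus, the 10-letter binding motif of NF-kB, within 250 bases before to 50 bases after the annotated start. All 10 members had at least 1 such window in the RefSeq promoter table (GRCm38.p6), 12 windows in all. Each sequence below runs 5′ to 3′ on the gene's strand and holds the 250 bases before the start site, with the motif matches in capitals.
Tnip3, chr6:65590148-65590397, plus strand: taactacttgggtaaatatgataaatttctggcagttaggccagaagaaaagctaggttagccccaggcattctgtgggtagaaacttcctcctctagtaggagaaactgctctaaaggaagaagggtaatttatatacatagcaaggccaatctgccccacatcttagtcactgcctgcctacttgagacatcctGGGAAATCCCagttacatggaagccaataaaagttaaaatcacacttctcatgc
Tnfaip3, chr10:19015411-19015660, minus strand: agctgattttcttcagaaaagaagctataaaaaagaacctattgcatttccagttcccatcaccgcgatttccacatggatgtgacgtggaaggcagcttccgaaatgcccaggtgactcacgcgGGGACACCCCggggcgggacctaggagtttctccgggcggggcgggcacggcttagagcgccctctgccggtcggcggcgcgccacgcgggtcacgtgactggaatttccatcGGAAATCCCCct
Traf3, chr12:111166120-111166369, plus strand: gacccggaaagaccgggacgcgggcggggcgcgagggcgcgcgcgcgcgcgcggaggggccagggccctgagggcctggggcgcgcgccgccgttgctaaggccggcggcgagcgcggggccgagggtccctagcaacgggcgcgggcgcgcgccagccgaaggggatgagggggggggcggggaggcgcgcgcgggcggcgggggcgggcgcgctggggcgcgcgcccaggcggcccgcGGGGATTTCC
The match of Tnip3, GGGAAATCCC, begins 54 bases before the start site. Tnfaip3 has 2 matches, GGGACACCCC beginning 125 bases and GGAAATCCCC beginning 12 bases before it, and Traf3 has GGGGATTTCC beginning 10 bases before it. On both strands, 3 of the 10 members had a match, counted by gene over their 12 windows. Counted by single window, 4.51% of all 32851 windows had one, so these figures are not in like units.

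Among these 3 genes the transcript ratios were 8.57 for Tnip3, 1.42 for Tnfaip3 and 0.897 for Traf3. The match is a description of the letters and not a binding site. An AP-1 motif (TGANTCA, present in 7.81% of all windows) was found for Tnfaip3 alone among the members, 136 bases before the start. A CRE motif (TGACGTCA, in 1.79% of windows) was found for Birc2 alone, 35 bases before the start. The STAT motif (TTCNNNGAA, in 8.30% of windows) was found in 0 of the 10 members. None of the matches overlapped another. The windows differed in composition too. The promoter of Tnip3 held 42.3% G and C and 0 CpG dinucleotides in 300 bases, that of Traf3 84.0% and 59, and the median of all windows was 52.7% and 7.

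**Figure D4:**
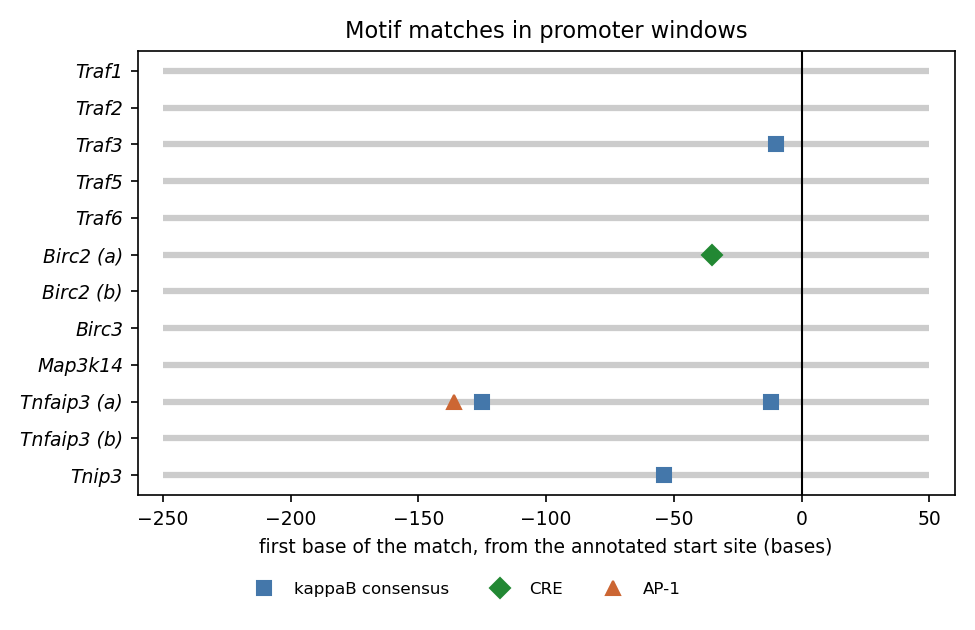
Matches to the kappaB consensus (blue squares), AP-1 (orange triangle) and CRE (green diamond) motifs in the 12 promoter windows, by the distance in bases of the first base of the match from the annotated start (0); letters a and b mark separate start sites of a gene. Matches fall in the windows of Traf3, Birc2, Tnfaip3 and Tnip3.

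The genes around the members were read from 5 lists. Of all 10645 kept genes 2.26% were at least 2-fold higher and 1.32% lower. A count of 0 in lists of this size therefore says little. Of 15 receptor and ligand genes 13 were kept by the filter, with a median log2 change of -0.14, which was -0.25 with the median ratio set to 1 and -0.31 with totals set equal. Tnfrsf4, which encodes OX40 itself, stood at 144 FPKM with WT APCs and 267 FPKM with OX40L-TG APCs, a ratio of 1.86, and Tnfsf4, which encodes OX40L, at 2.70 and 2.14 FPKM. In this list 2 genes were at least 2-fold higher, Tnfrsf9 for 4-1BB (5.49 to 25.7 FPKM) and Tnfrsf18 for GITR (125 to 314 FPKM), both receptors that use TRAFs. Lower by at least 2-fold were Tnfrsf8 for CD30 (22.1 to 8.61 FPKM) and Tnfrsf13c, the gene of the BAFF receptor of B cells (6.49 to 2.44 FPKM), beside the lower B cell markers given above. With a pseudocount of 5 FPKM in place of 1, neither reached 2-fold (0 of 13 lower). The printed locus of Tnfrsf9 holds 9 protein-coding genes and that of Tnfrsf8 holds 12, so their values are less certain.

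Of 13 further adaptor and TRAF-binding genes 12 were kept, and 0 were 2-fold higher or lower. Their median was 0.15, and it was 0.031 with the median ratio set to 1 and -0.025 with totals set equal. The largest change upward was that of Siva1, which encodes a death-promoting binding partner of CD27 (30.5 to 45.0 FPKM, log2 change 0.55). The largest downward was that of Traf3ip3, which encodes a TRAF3-interacting protein (55.1 to 45.9 FPKM, -0.26).

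The 20 genes of ubiquitin editing and of the inhibitor of apoptosis family held 0 at 2-fold. Their median was 0.075, and its sign turned with the median ratio set to 1 (-0.043) and with totals set equal (-0.10). The median of all genes was 0.0045 and -0.048 under these scalings. The 20 genes include those of the linear ubiquitin ligase and of deubiquitinases. Tnip1 had the largest change upward (0.32) and Rbck1, a subunit gene of the linear ubiquitin ligase, the largest downward (75.4 to 69.7 FPKM, -0.11). All 20 thus lay between -0.11 and 0.32. The 10 members ran from -0.40 to 2.64, and from -0.40 to 0.61 without Tnip3. Members and lists were chosen with earlier results of these data known, so the ranges do not compare the groups.

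The 17 kinase and kinase partner genes of the IKK, TAK1 and MAP kinase modules, protein kinase C theta among them, held 0 at 2-fold. Their median of 0.094 turned to -0.020 and -0.075 under these 2 scalings, beside 0.0045 and -0.048 for all genes. Map3k5, which encodes the stress kinase ASK1, had the largest change downward (24.1 to 14.6 FPKM, -0.68). Map3k1, a kinase gene upstream of JNK, had the largest upward (42.1 to 56.2 FPKM, 0.41). The 11 NF-kB subunit and IkB genes likewise held 0 at 2-fold, and their median of 0.050 turned to -0.070 and -0.13. Nfkb2, the gene of the subunit that NIK activates, had the largest change (72.9 to 120 FPKM, 0.72), and Nfkbiz, which encodes IkB-zeta, the lowest (20.3 to 18.3 FPKM, -0.14).

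**Figure D5:**
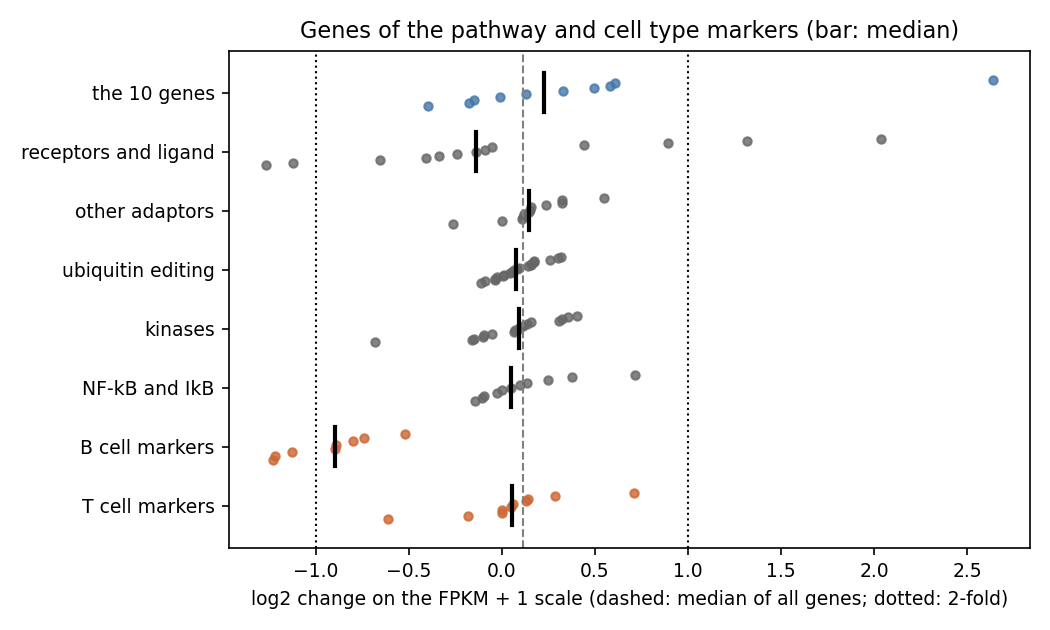
Log2 change on the FPKM + 1 scale of each kept gene of the 10 members (blue), of 5 lists of pathway genes (grey) and of the B cell and T cell markers (orange), with list medians as black bars, the median of all genes dashed and 2-fold dotted. Tnip3 at 2.64 is the highest point, and all kept B cell markers lie below the median of all genes.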

How the data were processed

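RNA sequencing values of 2 libraries were used, 1 per condition. The authors deposited FPKM values for 24440 features, per the file headers, and a comparison table of 398 genes with the log2 ratio and a p-value per gene, deposited by the authors without a q-value. TopHat2 and Cuffdiff and the build mm9 are named in the submitters' processing notes. Their versions, the gene models, and how strand and low values were handled are not given in the sources used here. The deposited coordinates follow GRCm38, since 99.7% of 13030 loci overlapped the RefSeq gene of that assembly (GRCm38.p6) with the same Entrez identifier, the 10 members included. They are printed as deposited. The 2 deposited tables differ slightly in scale: the comparison table's WT-APC FPKM had a median ratio of 0.976 to the other table's.

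Members and gene lists were chosen with earlier results of these data known. Named genes are the 10 members, the genes of OX40 and OX40L and, in each list, the genes at 2-fold and the largest change in each direction. Other relatives (Traf4, Traf7, Tnip2, and marker genes at 0) were named for the family sums and marker checks. Gstp2 was named for being printed with a member's locus, and Efcab15 and Spata32 for being annotated inside one. Some genes first listed with the kinases are not reported here. Genes of like pattern were not sought, since 2 libraries give no pattern.

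Change was the log2 of the OX40L-TG-APC over the WT-APC value after 1 FPKM was added to each, for genes reaching 1 FPKM in either library, which understates the ratio of low genes. Ratios are plain FPKM ratios. Depth was estimated from the steps of 88 single-transcript genes under 0.3 FPKM with transcripts of at least 1500 bases. The step ratio was 0.873, with whole-number ratios up to 6 within 0.2% for 58.0% of them, against 3.41% at a ratio shifted by 5%. Fragment numbers used these depths and a length per gene (the median over its protein-coding GENCODE transcripts), with no correction for fragment length, so they are rough. Ratio intervals are Clopper-Pearson and level intervals Poisson, both exact at 95%, for counting error only. The estimate and the calls were also run on simulated data. These were made with the same transcript lengths and counting error only. They therefore cannot test those lengths or the division of reads between features. Promoters came from RefSeq, and in 11 of 12 member windows bases after the start site occurred in a transcript of the gene on the same strand. Python 3.11, numpy 2.4.6, pandas 2.3.3 and scipy 1.17.1 were used.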

Additional observations from a re-analysis of the deposited data

How the results depend on the processing

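The alternatives were pseudocounts of 0.1 and 5 FPKM, no filter, a filter at 5 FPKM, and the scalings by median ratio and by equal totals. Under all 6 the number of members at 2-fold was 1 higher (Tnip3) and 0 lower, and the log2 change of Tnip3 ran from 1.74 to 3.04. At 1.5-fold 2 members were higher, Tnip3 and Traf1, and 0 lower, where 7.21% and 3.38% of all genes passed. Traf6 fell just short at 0.58. These are the values as deposited. Traf1, at 0.61, was below 1.5-fold by median ratio (0.49) and by equal totals (0.43). The median of the members was 0.11 by median ratio and 0.057 by equal totals, beside 0.0045 and -0.048 for all genes. By the same 2 scalings the list medians were -0.043 and -0.10 for ubiquitin editing, -0.020 and -0.075 for the kinases, -0.070 and -0.13 for NF-kB, 0.031 and -0.025 for the adaptors, and -0.25 and -0.31 for the receptors. With a pseudocount of 5, 0 receptor genes were at least 2-fold lower. Of 61 alternative values of single members 18 moved beyond their counting interval, and Traf2 alone changed sign, to -0.04. The filter settings could change neither these values nor the number of members at 2-fold, since every member reached 5 FPKM in one or both libraries. No paired analysis was possible because each condition has 1 library, and no library could be left out for the same reason.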
